A study of Mus musculus with 2 samples.

Results

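The hair bundle and mechanotransduction deafness genes are 36 mouse genes that build, anchor or run the mechanosensory bundle of inner ear hair cells, or act beside it in these cells. They were chosen by name from 21938 protein-coding genes of GENCODE vM21 (build GRCm38). The choice used no measured value, but it was made with earlier results of these data known. A peak was counted for a gene's promoter when its centre lay within 3 kb of any annotated transcription start site (TSS) of the gene, and for its region when it lay in the gene body or the 10 kb upstream. All 36 genes were found in the annotation.

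ATAC-seq measures open chromatin, because the Tn5 transposase inserts adapters preferentially into accessible DNA. The organ of Corti, the sensory epithelium of the cochlea, was dissected from mice at postnatal day 2 of 2 genotypes, WT and *Bmi1*-/-, which came from matings of heterozygotes carrying the constitutive *Bmi1*tm1Brn allele on a C57BL/6J background. For each genotype, 10 mice were pooled and 20000 cells made 1 library, so that no difference between the genotypes could be tested against the spread between animals, and intervals below cover counting error only. The peaks numbered 77826 under the WT label and 100668 under the *Bmi1* KO label. A q-value, the p-value adjusted per library, under 0.05 was reached by 52.4% of those labelled WT and 62.8% of those labelled *Bmi1* KO. The main counts below use every listed peak whatever its q-value, so presence in a list is not by itself a significant call.

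Some features of the lists bear on every comparison. All the peak names in the list labelled WT carry the prefix of the knockout, and all those in the list labelled *Bmi1* KO carry the prefix of the wild type. At *Bmi1* itself (chr2:18677018-18686629), the list labelled WT had 1 peak, in an untranslated exon and at the 40.1th percentile of its list. The list labelled *Bmi1* KO had 4 there, 3 of them in the gene body, with the strongest at the 92.0th percentile. The extent of the deletion is not given in the sources used here, so the lists are named only by their labels and every direction below rests on those labels. The list labelled *Bmi1* KO was deeper, with a commonest background of 8.04 reads at a summit against 6.32, and its peaks had a median width of 277 bp against 260 bp. Its −log10 p values therefore reach higher for the same fold enrichment, and strengths are given as percentiles, the rank of a peak's −log10 p within its own list. Of the peaks labelled WT, 24.8% overlapped a peak labelled *Bmi1* KO by at least 1 bp, and 18.5% did so in the other direction.

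Counts of marker genes stand against the shares of all protein-coding genes. Of these, 59.1% had a promoter peak labelled WT, 68.2% one labelled *Bmi1* KO and 53.0% one in both lists. Of 8 hair cell markers, 62.5% had a promoter peak in each list (24.5 to 91.5), and 3 had one in both, the regulators *Atoh1*, *Pou4f3* and *Gfi1*. *Barhl1* and *Lhx3* had one labelled WT only, *Calb1* and *Otof* had one labelled *Bmi1* KO only, and *Rasd2* had none. Of 8 supporting cell markers, 8 had one labelled WT and 7 one labelled *Bmi1* KO. For neurons the counts were 3 and 4 of 6, for glia 2 and 3 of 5, for mesenchyme 3 and 3 of 5, and for endothelium 4 and 2 of 5. Among blood and macrophage genes, *Csf1r* had a promoter peak labelled WT only, and *Ptprc*, *Hbb-bt* and *Cd68* had none in either list. The glial gene *Sox10* had none either. In such a mixed tissue, fewer cells of a type and less accessible chromatin per cell cannot be told apart, and the part of other cell types in the values below was not tested.

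The hair bundle is a staircase of stereocilia, each a rod of parallel actin filaments. Tip links, made of cadherin 23 and protocadherin 15, run from the tip of a stereocilium to its taller neighbour, and tension on them opens the mechanotransduction channel. Myosins carry scaffold and length-control proteins along the actin core, and loss of many of these proteins causes deafness. *Bmi1* encodes a subunit of Polycomb repressive complex 1, which helps to keep developmental genes silent.

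The promoters of 5 genes show how the class of start and the presence of a peak were combined in these genes. They are RefSeq windows of GRCm38.p6 from 250 bases before to 50 after a start, with each CpG dinucleotide in capitals. *Myo6* (chr9:80164784-80165083, plus strand) held 22 CpGs and *Adgrv1* (chr13:81633095-81633394, minus strand) held 14, and both windows met a peak in each list. *Pls1* (chr9:95845230-95845529, minus strand) held 16 and met a peak labelled *Bmi1* KO only. *Lhfpl5* (chr17:28575469-28575768, plus strand) held 28 CpGs and *Tmc1* (chr19:20954153-20954452, minus strand) held 1, and neither met a peak.
Myo6: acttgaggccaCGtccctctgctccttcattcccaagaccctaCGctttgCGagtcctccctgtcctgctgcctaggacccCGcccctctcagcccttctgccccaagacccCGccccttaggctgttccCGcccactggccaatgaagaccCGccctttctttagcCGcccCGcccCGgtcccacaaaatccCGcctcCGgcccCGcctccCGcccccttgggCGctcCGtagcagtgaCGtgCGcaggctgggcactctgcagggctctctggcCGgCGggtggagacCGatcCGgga
Adgrv1: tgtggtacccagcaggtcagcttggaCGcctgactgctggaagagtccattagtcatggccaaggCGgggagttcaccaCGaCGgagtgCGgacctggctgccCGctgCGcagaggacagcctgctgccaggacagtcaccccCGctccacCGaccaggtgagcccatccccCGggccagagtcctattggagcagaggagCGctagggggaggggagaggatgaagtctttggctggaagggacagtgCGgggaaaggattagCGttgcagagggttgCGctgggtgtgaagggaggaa
Pls1: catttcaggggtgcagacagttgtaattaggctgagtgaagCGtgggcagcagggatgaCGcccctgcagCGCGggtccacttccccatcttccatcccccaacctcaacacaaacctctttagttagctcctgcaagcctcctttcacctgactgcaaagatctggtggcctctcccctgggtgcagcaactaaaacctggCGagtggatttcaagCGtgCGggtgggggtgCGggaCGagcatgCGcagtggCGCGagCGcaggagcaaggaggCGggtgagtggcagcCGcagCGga
Lhfpl5: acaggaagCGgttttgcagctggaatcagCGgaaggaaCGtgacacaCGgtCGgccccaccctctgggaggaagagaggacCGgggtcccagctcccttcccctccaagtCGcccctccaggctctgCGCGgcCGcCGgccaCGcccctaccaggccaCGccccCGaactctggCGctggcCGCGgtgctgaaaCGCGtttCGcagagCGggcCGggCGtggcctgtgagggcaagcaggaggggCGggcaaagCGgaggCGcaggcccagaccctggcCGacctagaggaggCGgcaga
Tmc1: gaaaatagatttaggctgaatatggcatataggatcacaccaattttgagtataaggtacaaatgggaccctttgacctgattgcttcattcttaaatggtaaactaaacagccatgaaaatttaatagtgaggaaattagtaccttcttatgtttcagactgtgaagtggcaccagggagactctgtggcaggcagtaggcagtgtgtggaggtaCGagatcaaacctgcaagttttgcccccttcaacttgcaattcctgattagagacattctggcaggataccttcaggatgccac

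A promoter peak was found for 18 of the 36 genes in the list labelled WT (50%, exact binomial 95% interval 32.9 to 67.1), against 59.1% of all protein-coding genes. In the list labelled *Bmi1* KO, 26 of 36 genes had one (72.2%, 54.8 to 85.8), against 68.2% of all. Both lists held a promoter peak for 18 genes, a state that 53.0% of all genes shared. For 8 genes the only promoter peaks were labelled *Bmi1* KO, against 15.2% of all genes in that state. At a q-value under 0.05 these genes numbered 6, as the peaks of *Pcdh15* (−log10 q 1.07) and *Myo3b* (1.27) missed the limit. Both peaks of *Myo15* (0.772 and 0.598) missed it too, which left 17 genes with promoter peaks in both lists. At the main settings no gene had a promoter peak labelled WT only, where the background was 6.10%. A −log10 p of at least 5 gave 3 such genes, and the settings without that limit gave 0 to 2. The thinning described below, which lowers the list labelled *Bmi1* KO only, gave a median of 5.5 (3.0 to 8.0 over 20 draws). At the main settings 10 genes had none, against 25.7% of all. Each of the intervals of the genes' shares included the value over all genes. At a −log10 p of at least 5 the shares were 41.7% for WT, against 31.9% of all genes, and 47.2% for *Bmi1* KO, against 46.8%, so that the genes' share labelled WT lay above that of all genes at this call. The *Bmi1* KO pileups, and not those labelled WT, were also thinned to the WT background, a choice made after seeing the data. The genes' share labelled *Bmi1* KO then became 37.5% (30.6 to 47.2 over 20 draws), against 37.2% of all genes. That range covers the draws only, and thinned values are biased low, because summits are the highest positions. Under a stricter call, a −log10 q of at least 5, no gene kept a promoter peak in the list labelled WT, against 4.17% of all genes. In the list labelled *Bmi1* KO, *Myo6*, *Triobp*, *Adgrv1* and *Cib2* did, which is 4 of 36 against 17.6% of all.

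The percentile of the strongest promoter peak was higher for *Bmi1* KO than for WT at 16 of the 26 genes with a peak in either list (61.5%, 40.6 to 79.8), against 68.6% of 16298 genes. For 8 of these 16 the direction was fixed by the absence of a peak labelled WT. Among the 18 genes with peaks in both lists, 8 ranked higher and 10 lower for *Bmi1* KO (44.4% higher, 21.5 to 69.2), against 67.5% higher over all genes with peaks in both. Of the 18 genes with peaks in both lists, 12 had promoter peaks at overlapping positions, against 76.2% of 11618 genes. At the other 6 (*Myo7a*, *Myo15*, *Cdh23*, *Ush1c*, *Espnl* and *Actg1*) the peaks of the lists lay apart.

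**Figure D1:**
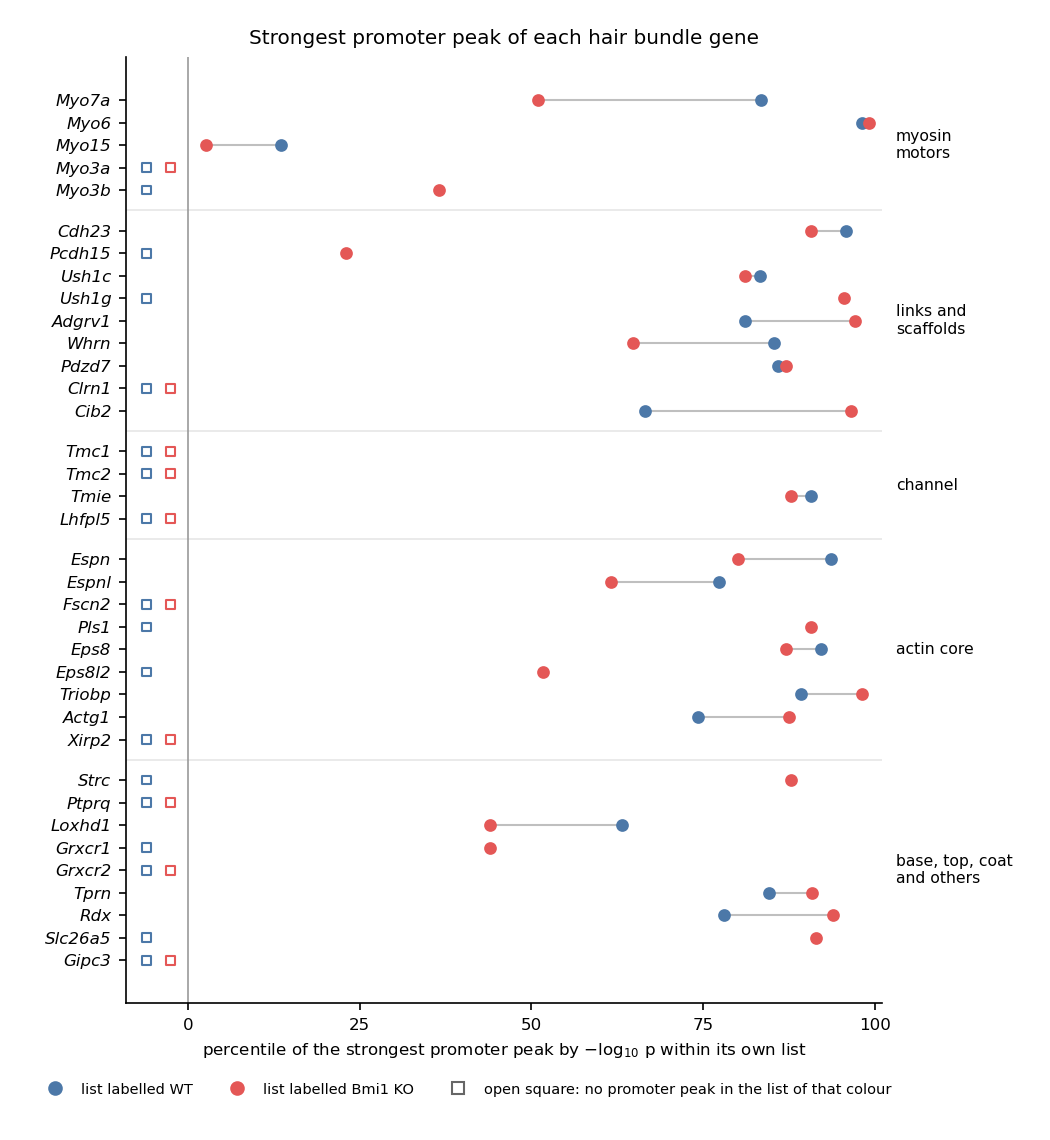
Percentile of the strongest promoter peak of each gene by −log10 p within its own list (x axis), for the 36 genes by role (y axis), with the list labelled WT in blue and the list labelled *Bmi1* KO in red. An open square left of 0 marks a gene with no promoter peak in the list of that colour, as for 10 genes in both lists and 8 in the list labelled WT only.

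Of the 5 myosin motors, 3 had a promoter peak labelled WT and 4 had one labelled *Bmi1* KO. *Myo6*, the motor that walks toward the pointed end of actin and holds the membrane down at the base of the bundle, had the highest ranked promoter of all 36 genes. Its peak labelled WT (chr9:80164457-80165108) had a summit of 27 reads (exact Poisson interval 17.8 to 39.3) over a background of 6.78, a fold enrichment of 3.6 and the 98.1th percentile. The peak labelled *Bmi1* KO (chr9:80164516-80165327) had 44 reads (32 to 59.1) over 10.4, a fold enrichment of 3.95 and the 99.1th percentile. Both peaks lay across the gene's own start, with centres 248 and 109 bp upstream of it. By percentile this promoter ranked high among all peaks of either list, though its peak labelled WT (−log10 q 4.85) missed the strict call.

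*Myo7a*, the motor of the upper tip link complex, had no peak within 3 kb of its own start in either list. Its strongest peaks lay at internal starts, 35125 bp into the gene at the 83.4th percentile for WT and 48313 bp into it at the 51.0th percentile for *Bmi1* KO. This was the largest gap in percentile among genes with peaks in both lists, −32.4 points, and it compares different intronic positions. *Myo15*, which carries length-control proteins to stereocilia tips, had weak peaks, at the 13.5th percentile near its start and the 2.63th percentile 9479 bp inside it. *Myo3b*, a class III myosin with a kinase domain, had a single internal promoter peak, labelled *Bmi1* KO, at the 36.5th percentile. Its relative *Myo3a* had none in either list.

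Among the 9 genes of the tip link, the ankle link and their scaffolds, 6 had a promoter peak labelled WT and 8 had one labelled *Bmi1* KO. These shares, 66.7% (29.9 to 92.5) and 88.9% (51.8 to 99.7), stood against 59.1% and 68.2% of all genes. *Adgrv1*, the adhesion receptor of the ankle link, had overlapping peaks at its start. In the list labelled WT the peak (chr13:81633050-81633385) had 20 reads over 6.32 and stood at the 81.0th percentile. In the list labelled *Bmi1* KO it (chr13:81632848-81633369) had 31 reads over 8.04 and stood at the 97th, 16.0 points higher. *Cib2*, a calcium-binding partner of the channel, had the larger gap in percentile. The exact Poisson intervals of the summit reads overlapped between the lists at both genes. They were 12.2 to 30.9 and 21.1 to 44.0 for *Adgrv1*, and 13.8 to 33.3 and 22.7 to 46.3 for *Cib2*. The peaks of *Cib2* covered the same untranslated first exon (chr9:54559929-54560501 and chr9:54559710-54560531), with 22 reads over 8.10 at the 66.5th percentile labelled WT and 33 reads over 9.46 at the 96.5th labelled *Bmi1* KO, a gap of 30.1 points. In an intron of *Cib2*, a peak labelled WT (chr9:54554998-54555331) stood at the 95.7th percentile with no overlap in the other list.

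*Cdh23*, cadherin 23 of the upper tip link, ranked high in both lists but at different places. The peak labelled WT (chr10:60694661-60694892, 29 reads over 9.06, 95.8th percentile) lay in an intron 1713 bp from the gene's start. The peak labelled *Bmi1* KO (chr10:60687106-60687546, 33 reads over 12, 90.6th percentile) lay 69 bp from a second start, 9164 bp into the gene. *Ush1c* (harmonin, a scaffold of the upper tip link) had internal peaks at the 83.3th and 81.0th percentiles, apart from each other. *Whrn* (whirlin, a PDZ scaffold) had its strongest peak labelled WT at an internal start (85.3th percentile) and its strongest labelled *Bmi1* KO at its own start (64.8th), a gap of −20.5 points between different sites. At its own start the overlapping peak labelled WT stood at the 34.0th percentile, below the one labelled *Bmi1* KO. At *Pdzd7*, another PDZ scaffold, the overlapping peaks at the 85.8th and 87.0th percentiles were centred at −2176 and −2520 bp from the start, and the start nearest to both was that of *Sfxn3*, 15 and 359 bp away. A weaker peak labelled *Bmi1* KO (chr19:45045473-45045706, 48.6th percentile) lay 53 bp from a start of *Pdzd7* itself, with no overlap in the other list.

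Promoter peaks labelled *Bmi1* KO only were found at *Ush1g* and *Pcdh15*. The peak of *Ush1g*, which encodes the scaffold SANS, lay in an intron 948 bp from the start (chr11:115320932-115321254, 36 reads over 11.7, 95.5th percentile), and its −log10 q of 4.96 was the next below the strict call. *Pcdh15*, protocadherin 15 of the lower tip link, had a weak one at its start (chr10:73099379-73099714, 19 reads over 8.22, 23.0th percentile). *Clrn1*, a membrane protein of hair cells, had no promoter peak, although a peak labelled *Bmi1* KO at the 1.3th percentile lay 3070 bp upstream, just outside the window.

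Of the 4 genes of the mechanotransduction channel only *Tmie*, a channel subunit needed for current, had one. Its peak labelled WT (chr9:110880000-110880454) had 29 reads over 10.2 at the 90.6th percentile, and its peak labelled *Bmi1* KO (chr9:110879968-110880184) had 32 reads over 11.9 at the 87.8th. The promoter is shared with *Als2cl*, whose start lay 6 bp from the centre of the peak labelled WT. *Tmc1* and *Tmc2*, which encode the pore, and *Lhfpl5*, which couples the channel to the tip link, had no promoter peak in either list. With 4 genes, the share of 25% in each list has an interval of 0.631 to 80.6, which includes the values over all genes.

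Of the 9 genes of the actin core, 5 and 7 had a promoter peak in the lists labelled WT and *Bmi1* KO. These shares, 55.6% (21.2 to 86.3) and 77.8% (40.0 to 97.2), stood against 59.1% and 68.2% of all genes. *Triobp*, which bundles actin in the rootlets that anchor stereocilia, had the same peak centre in both lists, 97 bp inside its first exon. Labelled WT (chr15:78947692-78947950) it had 23 reads over 7.32 at the 89.2th percentile, and labelled *Bmi1* KO (chr15:78947657-78947984) it had 36 reads over 9.04 at the 98.1th. *Eps8*, which controls filament length at the tips, had its strongest promoter peaks 5668 and 6274 bp inside the gene. These were a peak labelled WT at the 92.1th percentile (chr6:137649094-137649322, 22 reads over 6.32) and one labelled *Bmi1* KO at the 87.1th (chr6:137648351-137648852, 25 reads over 8.22), and a further peak labelled *Bmi1* KO at the 81.4th percentile overlapped the former.

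*Pls1*, the bundling protein plastin 1, had 3 promoter peaks and all were labelled *Bmi1* KO. The strongest (chr9:95844873-95845479, 28 reads over 9.22, 90.6th percentile) covered its untranslated first exon, where the list labelled WT had none. *Eps8l2*, a relative of *Eps8*, also had peaks labelled *Bmi1* KO only, 3 of them, all near starts toward the 3′ end, and the strongest, at the 51.7th percentile, lay just past the end of the gene. The espin gene *Espn* had overlapping peaks at 2 sites, with opposite differences. At an internal site 13417 bp into the gene the percentiles were 93.6 for WT and 72.8 for *Bmi1* KO, and at its own start they were 73.8 and 80.1. Its relative *Espnl* had peaks at different positions, at the 77.3th percentile for WT and the 61.6th for *Bmi1* KO. *Actg1*, cytoplasmic γ-actin, ranked at the 74.2th percentile labelled WT and the 87.4th labelled *Bmi1* KO, with peaks that did not overlap. *Actg1* has processed copies in the genome, and how reads that map to several places were treated is not given in the sources used here.

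*Fscn2* (fascin 2, an actin crosslinker) and *Xirp2* (an actin-binding protein) had no promoter peak. *Fscn2* missed the window by little, with a peak labelled WT 3003 bp upstream at the 47.0th percentile, which also lies upstream of its neighbour *Actg1*. *Xirp2* had no peak anywhere in its region in either list.

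Of the 9 remaining genes, of the base, top and coat of the bundle and of other parts of the hair cell, 3 had a promoter peak labelled WT and 6 had one labelled *Bmi1* KO. These shares, 33.3% (7.49 to 70.1) and 66.7% (29.9 to 92.5), stood against 59.1% and 68.2% of all genes. *Tprn* (taperin) and *Rdx* (radixin), proteins of the stereocilia base, had overlapping peaks in both. They stood at the 84.6th and 78th percentiles labelled WT and at the 90.8th and 93.8th labelled *Bmi1* KO. *Loxhd1*, which encodes a protein of repeated PLAT domains along the stereocilia membrane, had its strongest peak labelled WT at −671 bp from its start (63.2th percentile) and its strongest labelled *Bmi1* KO at an internal start 24745 bp into the gene (44.0th), a gap of −19.2 points between different sites. The peak labelled *Bmi1* KO that overlapped the former stood at the 9.97th percentile.

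The 3 genes of this group with promoter peaks labelled *Bmi1* KO only differed in where they lay. *Slc26a5*, which encodes the outer hair cell motor prestin, had its peak in an intron at a start 45435 bp inside the gene (chr5:21819989-21820349, 26 reads over 8.04, 91.4th percentile). *Strc*, which encodes stereocilin of the top connectors, had its strongest in a coding exon 12793 bp inside the gene (chr2:121374232-121374518, 30 reads over 10.8, 87.8th percentile). *Grxcr1*, which encodes a glutaredoxin-like protein, had a weaker one 588 bp upstream of its only start (chr5:68031079-68031414, 20 reads over 8.04, 44.0th percentile). The phosphatase gene *Ptprq*, *Grxcr2* and *Gipc3*, which encodes a PDZ protein, had no promoter peak in either list.

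The number of promoter peaks, as opposed to genes with one, differed more between the lists. This count was not among the planned results, and its split by start was a choice made after seeing the data. The 36 genes had 30 promoter peaks labelled WT and 63 labelled *Bmi1* KO, a ratio of 2.10 (exact 95% interval 1.34 to 3.36), against 1.25 over all protein-coding genes. Within 3 kb of the gene's own 5′ start the counts were 17 and 24, a ratio of 1.41 (0.727 to 2.80) against 1.27 for all genes. At other annotated starts they were 13 and 39, a ratio of 3.00 (1.57 to 6.13) against 1.2. The peaks at other starts had a median percentile of 83.3 for the 13 labelled WT and 44.0 for the 39 labelled *Bmi1* KO, against 48.2 and 50.9 for all genes. Of the 39, 4 overlapped a peak of the other list (10.3%, against 20.3% for all genes) and 21 had a q-value under 0.05. Several lay in the same gene, so they are not independent, while the exact intervals of these ratios treat all peaks as if they were. Among peaks with a q-value under 0.05, the counts were 25 and 42, and the interval of their ratio (1.68, 1.0 to 2.88) included the value for all genes, 1.51. At other starts alone these counts were 10 and 21, and the interval of the ratio (2.10, 0.947 to 4.99) included the 1.49 of all genes.

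**Figure D2:**
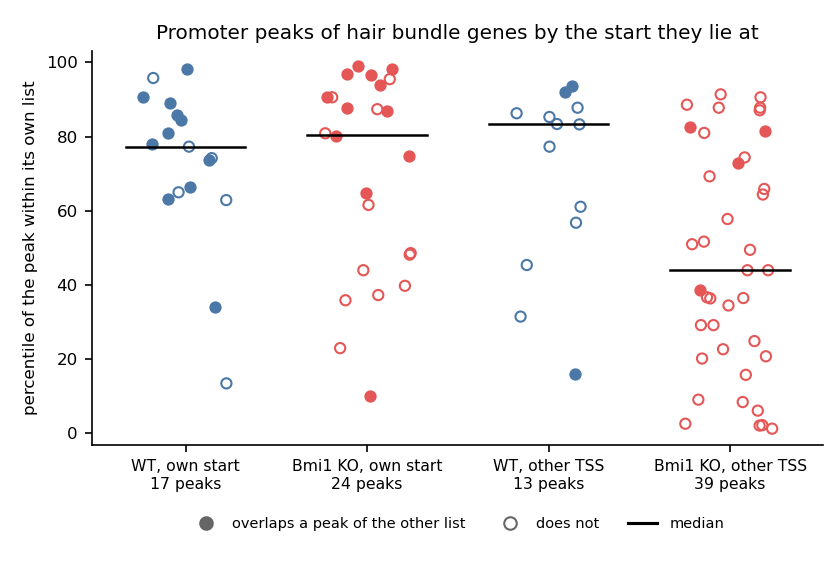
Percentile within its own list (y axis) of each promoter peak of the 36 genes, split by list and by whether the peak lies within 3 kb of the gene's own start or only near another TSS. Filled points overlap a peak of the other list and lines are medians, which were 77.3 and 80.5 at the own start and 83.3 and 44.0 at other starts.

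The window over every start also gave these genes more room than most. They had a mean of 5.50 starts per gene against 4.26 for all genes, a median promoter length of 15.2 kb against 8.82, and a median gene length of 56.5 kb against 17.4. Per 100 kb of promoter there were 4.51 peaks labelled WT and 9.48 labelled *Bmi1* KO, below the 8.71 and 10.9 of all genes. Counting only the gene's own 5′ start, a choice made after seeing the data, 15 genes (41.7%) had a promoter peak labelled WT and 18 (50%) one labelled *Bmi1* KO, against 51.6% and 62.6% of all genes. On that count the peaks of 5 genes (*Grxcr1*, *Pcdh15*, *Pls1*, *Ush1c* and *Ush1g*) were labelled *Bmi1* KO only and those of *Cdh23* and *Myo15* were labelled WT only. The share labelled *Bmi1* KO thus lay above that of all genes with every start and below it with the own start alone.

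CpG content was a property that the choice of genes did not use. It was given as the observed over the expected number of CpGs in the 300 bases at the gene's start, for the 30 genes that also have a RefSeq promoter entry (all but *Ush1g*, *Tmc2*, *Eps8*, *Ptprq*, *Loxhd1* and *Grxcr2*). The median was 0.46 against 0.52 for all genes, and 10 of the 30 reached 0.6. Of these 10, 5 had a promoter peak labelled WT (50%, 18.7 to 81.3) against 80.6% of all genes in that class, and 8 had one labelled *Bmi1* KO (80%, 44.4 to 97.5) against 91.3%. Of the 20 below 0.6, 11 had one labelled WT (55.0%, 31.5 to 76.9) against 41.9% of that class, and 15 had one labelled *Bmi1* KO (75%, 50.9 to 91.3) against 49.8%. These peaks lie at any start, whereas the CpG content is that of the gene's own start. With peaks counted at the own start alone, a choice made after seeing the data, the counts at 0.6 or above were 5 for WT (50%, 18.7 to 81.3) against 74.1%, and 6 for *Bmi1* KO (60%, 26.2 to 87.8) against 88.3%. Below 0.6 they were 9 (45%, 23.1 to 68.5) against 33.7%, and 10 (50%, 27.2 to 72.8) against 42.2%. The lower bound above the background in the class below 0.6 for *Bmi1* KO was thus not found at the own start. At 0.6 or above, with 10 genes, the upper bound for *Bmi1* KO at the own start, 87.8, lay just below the 88.3% of all genes. The class of some genes differs at their RefSeq starts. *Pcdh15* (0.88) and *Strc* (0.66) held 0.42 and 0.25 there, and a RefSeq window of *Rdx* (0.06) held 0.69. Whether the bound stays below 88.3% with such starts was not tested. *Lhfpl5* and *Gipc3* were the CpG-rich genes with no promoter peak in either list.

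**Figure D3:**
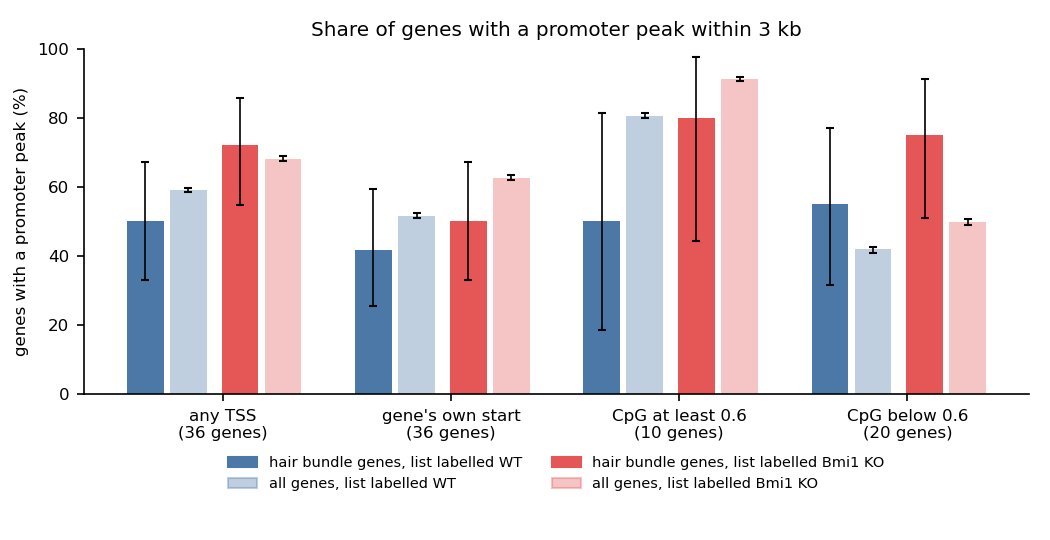
Share of genes with a promoter peak (y axis, percent) in each list, for the hair bundle genes (dark bars) and all protein-coding genes (pale bars), with any TSS, with the gene's own start, and by CpG observed over expected. Error bars are exact binomial 95% intervals, and those of the hair bundle genes are wide enough to include the value over all genes except in the class below 0.6 in the list labelled *Bmi1* KO, where the lower bound of 50.9 stands just above 49.8 with peaks at any start.

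Short motifs were counted in the RefSeq windows of the same 30 genes, on both strands and by exact letters. The E-box CAGCTG was present for 8 genes (26.7%, 12.3 to 45.9), against 17.6% of 16856 genes with such windows, and the other E-box CAGATG for 2 against 16.3%. The Sp/KLF motif GGGCGG was present for 16 (53.3%, 34.3 to 71.7) against 50.7%. The remaining motifs were found for 1 or 2 genes each, namely AATCAC of Gfi1 (1, against 11.2%), GTTGCC of RFX factors (2, against 14%), ATAATTA of POU4 factors (1, at *Grxcr1*, against 2.72%), TATAAA (2, against 14.6%) and CCGGAAG of ETS factors (1, against 13.2%). A match is a stretch of letters and not a bound site.

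Across the gene regions, 5.51 Mb in all with overlaps counted once, there were 169 peaks labelled WT and 220 labelled *Bmi1* KO, a ratio of 1.3 (1.06 to 1.60) close to the 1.26 of all protein-coding genes. With equal numbers of peaks taken from both lists the ratio turned to 0.964. Per 100 kb this was 3.07 and 3.99, against 4.30 and 5.42 for all genes. Peaks were found in the regions of 33 genes in each list. *Cdh23* had the most, 26 and 31, and *Myo3b* had 16 and 22, *Adgrv1* 13 and 17, and *Loxhd1* 17 and 14. *Pcdh15*, the longest of the genes at 1550 kb, had 10 and 17. *Strc* and *Eps8l2* had region peaks labelled *Bmi1* KO only, 3 and 2, while *Grxcr2* had 2 labelled WT only. The 3 peaks of the *Fscn2* region, all labelled WT, were the same peaks as 3 of the 4 in the overlapping *Actg1* region, and they enter the total once.

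Few of these region peaks were found in both lists. Of the 169 labelled WT, 30 overlapped a peak labelled *Bmi1* KO (17.8%, 12.3 to 24.4), against 28.9% of the region peaks of all genes. In the other direction the count was 31 of 220 (14.1%, 9.78 to 19.4), against 21.9%. The intervals of both shares lay below the values of all genes. A larger part of the genes' region peaks lay more than 3 kb from any TSS, 134 of 169 labelled WT and 145 of 220 labelled *Bmi1* KO. For all genes these were 28431 of 51071 and 35977 of 64353. Peaks so far from starts were shared less often, and how far this difference in position bears on the lower shares was not tested. Away from starts, more than 3 kb from the TSS of any gene, 14 of 134 peaks labelled WT (10.4%, 5.83 to 16.9) and 14 of 145 labelled *Bmi1* KO (9.66%, 5.38 to 15.7) were shared, against 15.1% and 11.9% for all genes, and these intervals include both values. They lay in 10 genes, 4 of them in *Loxhd1*.

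**Figure D4:**
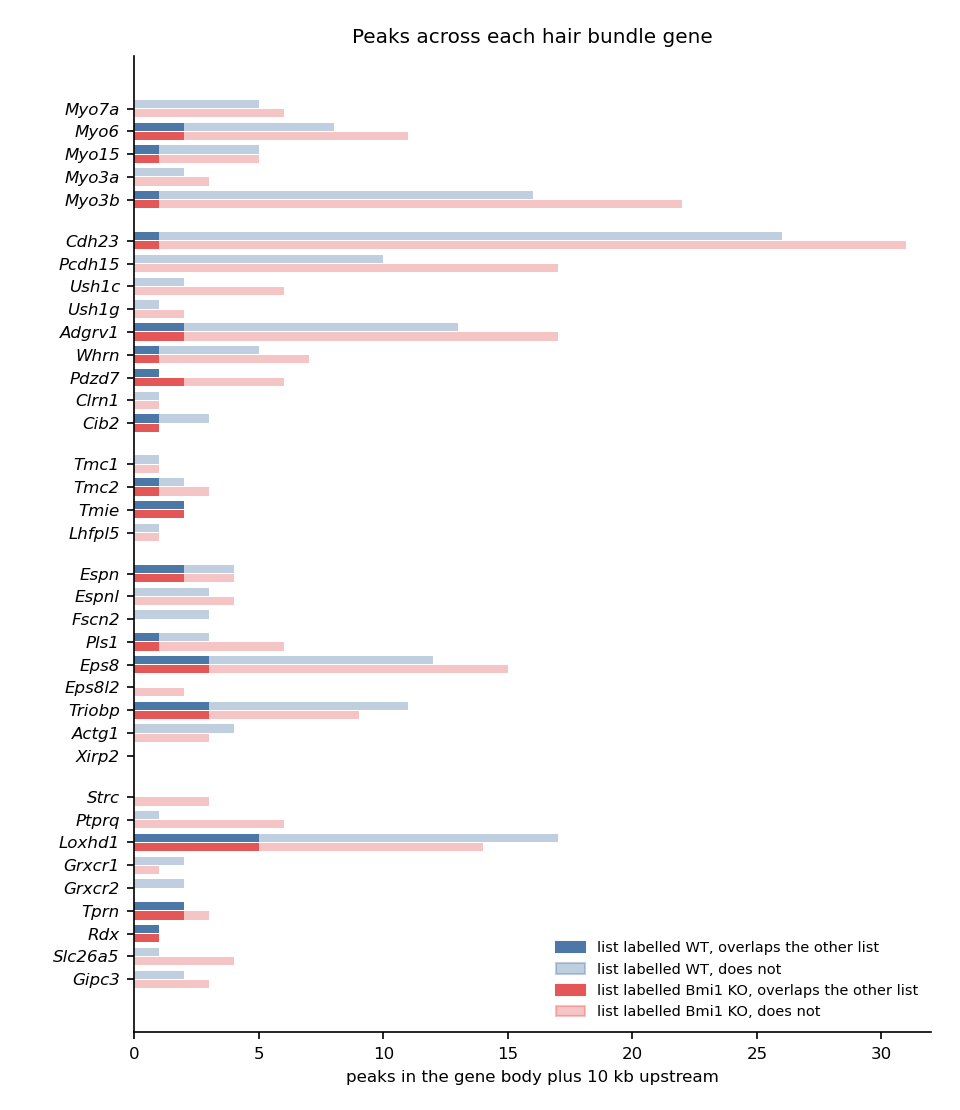
Number of peaks in the gene body plus 10 kb upstream (x axis) of each of the 36 genes by role (y axis), with the list labelled WT in blue and the list labelled *Bmi1* KO in red. The dark part of a bar counts peaks that overlap the other list, which were 30 of 169 and 31 of 220 in all, with the 3 peaks that *Fscn2* and *Actg1* share drawn for both, and *Xirp2* had no peak.

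The strongest distal peaks present in both lists lay in introns of *Adgrv1*, *Myo3b* and *Tmc2*, the last a channel gene without a promoter peak. In *Adgrv1* the peak labelled WT (chr13:81216726-81216966, 416308 bp from the start) stood at the 96.5th percentile and its partner at the 91.4th. In *Tmc2* the peak labelled WT (chr2:130249708-130249960, 54640 bp from the start) stood at the 87.8th and its partner (chr2:130249678-130249957) at the 91.4th, the only accessible site of a pore gene that both lists held. In *Myo3b* the values were the 93.7th (chr2:70143539-70143843) and the 88.6th. Windows around the summits labelled WT are shown for *Adgrv1* and *Tmc2* on the plus strand of GRCm38, since they are shared sites away from starts. None of the motifs above was found in them, so no letters are in capitals.
Adgrv1 intron, chr13:81216739-81216939: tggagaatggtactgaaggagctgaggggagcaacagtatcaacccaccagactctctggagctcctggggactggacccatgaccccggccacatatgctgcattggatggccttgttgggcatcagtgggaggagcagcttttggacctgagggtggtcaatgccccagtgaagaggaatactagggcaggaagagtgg
Tmc2 intron, chr2:130249711-130249911: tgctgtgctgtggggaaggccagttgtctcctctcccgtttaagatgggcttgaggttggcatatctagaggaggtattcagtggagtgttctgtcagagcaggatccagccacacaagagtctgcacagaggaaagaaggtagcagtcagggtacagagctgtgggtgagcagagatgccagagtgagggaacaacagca

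Some intronic peaks were as strong but present in 1 list only. In *Myo3b* a peak labelled WT (chr2:70357047-70357451) stood at the 98.2th percentile with 26 reads and no overlap in the other list. In *Adgrv1* a peak labelled *Bmi1* KO (chr13:81473855-81474077) also stood at the 98.2th percentile, with 34 reads and no overlap. *Ptprq*, without a promoter peak, had 1 region peak labelled WT and 6 labelled *Bmi1* KO, all intronic, with the strongest at the 81.0th and 88.6th percentiles. *Tmc1* had 1 intronic peak in each list, at the 81.0th and 29.2th percentiles and at different positions.

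Another 20 genes of the hair bundle, outside the 36, were listed for comparison. Of these, 15 had a promoter peak labelled WT (75%, 50.9 to 91.3), against 59.1% of all genes, and 17 one labelled *Bmi1* KO (85%, 62.1 to 96.8), against 68.2%. The peaks of *Atp2b2*, the calcium pump of the bundle, and *Elmod1* were labelled *Bmi1* KO only, and *Clrn2*, *Elmod3* and *Pkhd1l1* had none. The percentile of the strongest one was higher for *Bmi1* KO at 13 of 17 (76.5%, 50.1 to 93.2), *Atp2b2* and *Elmod1* included, against 68.6% of all. No gene of the 20 had promoter peaks labelled WT only, against 6.10% of all genes. The intervals of the shares of both sets overlapped in each list.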

How the data were processed

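The ATAC-seq peaks of postnatal day 2 organ of Corti were analysed, from 1 library of 10 pooled mice (20 cochleae) per genotype, and the labels gave each library its genotype. After trimming, the authors used BWA-MEM for mapping (build mm10 in the submitters' processing notes) and called peaks with MACS2 per library. Tool versions, options and the treatment of duplicate and multiply mapped reads are not given in the sources used here. In the deposited lists, fold enrichment is a ratio, summit pileup over local background, each plus 1. The deposited −log10 p is from a Poisson model, and the deposited −log10 q is adjusted per library. A deposited score was not used, and other deposited columns give positions. Read totals are not in the lists, so only the background shows the depth.

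Unplaced sequences were dropped, which left out 230 and 237 peaks. Pileups and backgrounds were solved from fold enrichment and −log10 p, with a whole pileup for 100% of peaks. Genes and TSSs came from GENCODE vM21, promoter windows from RefSeq (30 of 36 genes matched) and genome bases from GRCm38. Python 3.11.15, numpy 2.4.6, pandas 2.3.3, scipy 1.17.1, pysam 0.24.0 and matplotlib 3.10.9 were used, a peak near several genes was counted for each in promoter totals, and the steps were tested on simulated data. Shares have exact binomial intervals and ratios exact conditional intervals. With 1 library per genotype no test was made. Named are the 6 genes with the highest mean percentile, the genes with a promoter peak in 1 list only, the 5 with the largest percentile gap, those with none, and genes sharing a promoter peak. The genes and lists were chosen with earlier results of these data known. A marker gene and the count of its list are not reported here.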

Additional observations from a re-analysis of the deposited data

How the results depend on the processing

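Alternatives named here as added were chosen after seeing the data. No paired analysis was possible because each genotype has 1 library, and for the same reason no library could be left out. Against all protein-coding genes, the share with a promoter peak stayed lower in the list labelled WT under 9 of 11 alternatives, and was higher by 1.94 points at a q-value under 0.05 and by 9.77 at a −log10 p of at least 5 (added). In the list labelled *Bmi1* KO it was lower instead of higher under 4 of 11, by −6.53 points at a −log10 q of at least 5, −7.52 with TSSs of protein-coding transcripts only, −13.0 with RefSeq curated transcripts and −12.6 with the gene's own 5′ start (added). The share of the genes in that list moved to 52.8% with RefSeq transcripts, 52.8% with a window from 1 kb upstream to 100 bp downstream and 50% with the own start.

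With peaks kept only from a −log10 q of 5 upward, the shares were 0 and 11.1%, with 0 genes in both lists, 4 labelled *Bmi1* KO only and 32 with none. Region peaks then numbered 0 and 5, of which 0% were shared, and no ratio could be given. With pileups labelled *Bmi1* KO thinned to the other background (20 draws, added), the share was 37.5%, with medians of 9.5 genes in both lists, 4 labelled *Bmi1* KO only, 5.5 labelled WT only and 17 with none. Thinned values are biased low, because summits are the highest positions. Genes labelled *Bmi1* KO only numbered 5 with RefSeq transcripts and 5 with the own start. With peaks nearer another gene left out they numbered 10, and 16 genes had promoter peaks in both lists. Genes labelled WT only numbered 1 with any overlap, 1 with a 1 kb window, 1 with the same number of peaks, 2 with RefSeq transcripts, 2 with protein-coding transcripts and 2 with the own start. Genes with none numbered 17 with the window of 1 kb upstream and 16 with the own start. Region peaks at a q-value under 0.05 numbered 88 and 133, and with equal numbers of peaks from both lists the ratio reversed to 0.964. A reciprocal overlap of 50% left 9.47% and 7.27% of region peaks shared. The ratio of promoter peaks was 1.70 against 1.06 for all genes with the same number of peaks, and 1.5 against 1.28 with a 1 kb window (both added). Of the genes with a CpG value below 0.6, 50% had a peak labelled *Bmi1* KO at the own start (added).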
